A study of Homo sapiens with 24 samples.

Results

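The MPP+ response of cells that overexpress the mitochondrial NAD+ carrier SLC25A51 was read from 6 of the 24 libraries of the study. Of these, 3 libraries came from cells with the overexpression construct (oeMCART1, after the older symbol MCART1) that received 0.5 mM MPP+ for 24 h, and 3 came from oeMCART1 cells without MPP+. Both groups are labelled SH-SY5Y, a human neuroblastoma line, and both carry the construct. As a yardstick, the response of cells with the control construct oeNC was used, again with 3 libraries with MPP+ and 3 without. Polyadenylated RNA was captured with oligo-dT, and the deposited values are TPM (an abundance per transcript length that sums to one fixed total in each library). Which promoter drives the construct, and whether each line is a clone or a pool, is not given in the sources used here. The labels do not state that replicates are independent cultures, and the p-values cover the spread between these libraries only.

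MPP+ is the active metabolite of the neurotoxin MPTP and blocks complex I of the respiratory chain, which passes electrons from NADH to ubiquinone. SLC25A51 brings NAD+ into the mitochondrial matrix, where dehydrogenases turn it into NADH. Mitochondrial DNA holds the genes of some core proteins of the respiratory chain (complexes I, III and IV) and of ATP synthase (complex V), and of 2 ribosomal RNAs. Cells under mitochondrial stress are known to turn on the integrated stress response, in which phosphorylated eIF2 favours translation of the transcription factor ATF4, which in turn activates genes of amino acid supply, redox balance and cell death.

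The treated and the untreated libraries lie in separate deposited tables, so treatment and table are the same split and their effects on a gene cannot be told apart. The tables share 31524 gene identifiers, and only these were used, with each library rescaled to the same TPM total over them. A gene was tested when it reached 1 TPM in at least 3 of the 6 libraries. Among the tested genes, 65 of 11973 protein-coding genes (0.543%) differed more than 4-fold, against 67 of 596 antisense genes (11.2%). The cytoskeletal adaptor gene SCHIP1 read 11.9, 10.2 and 9.14 TPM in treated oeMCART1 cells and 0.201, 0.0604 and 0.291 TPM in untreated ones. Its overlapping readthrough gene IQCJ-SCHIP1 was listed at 0 in all treated oeMCART1 libraries and read 12.1, 10.7 and 12.8 TPM in untreated ones. For such a pair treatment and table cannot be told apart, and names of this kind are given below as uncertain.

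The label was checked against marker genes. PHOX2A and DBH, which mark the noradrenergic identity of SH-SY5Y cells, stood at no more than 0.09 TPM in the 12 untreated libraries, and TH was listed at 0 in all 6 oeMCART1 libraries. GATA2 read 15.8 ± 0.523 TPM in treated and 29.1 ± 1.62 TPM in untreated oeMCART1 cells (SD, n = 3 each), and ISL1 read 2.03 ± 0.199 and 4.26 ± 0.502 TPM. The values go against the label for the defining markers, and no other name is given to the cells here. In the summed level of all listed adrenergic markers found in both tables, of which 8 were tested, treated libraries held 39.0 to 41.3 TPM and untreated ones 54.7 to 59.3 TPM. Of the listed markers of bone marrow blood cells, 1 of 10 was tested. This was the haemoglobin gene HBA1, at 10.3 ± 1.99 TPM in treated and 22.2 ± 1.69 TPM in untreated cells.

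A composite site of C/EBP and ATF factors (CARE, letters TGATGNAA) lies in known targets of ATF4, and these windows bear on the stress genes described further on. It was looked for on both strands of the 250 bases before each gene's start in the RefSeq promoters of GRCh38.p14. Of the 19 genes listed for the integrated stress response, 17 had a promoter there and 4 held the letters (23.5%), against 870 of 27305 promoters in all (3.19%). Of these 4, CHAC1 and ATF3 rose with MPP+ and PPP1R15B and HERPUD1 fell. The windows of CHAC1, ATF3 and the asparagine synthetase gene ASNS follow, since these 3 genes rose and carry the letters, written along each gene's strand with the match in capitals. The CHAC1 match reads in the opposite direction. Relative to the start the windows span -250 to -151 (CHAC1), -237 to -138 (ATF3) and -114 to -15 (ASNS).
CHAC1, chr15:40953221-40953320, plus strand: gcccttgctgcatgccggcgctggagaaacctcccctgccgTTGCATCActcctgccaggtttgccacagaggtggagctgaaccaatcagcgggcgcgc
ATF3, chr1:212565170-212565269, plus strand: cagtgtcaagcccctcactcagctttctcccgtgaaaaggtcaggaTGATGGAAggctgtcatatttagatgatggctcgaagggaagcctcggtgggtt
ASNS, chr7:97872423-97872522, minus strand: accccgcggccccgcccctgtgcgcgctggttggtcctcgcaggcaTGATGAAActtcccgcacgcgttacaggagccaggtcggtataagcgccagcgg
A match describes these letters and does not show that a factor binds there.

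SLC25A51, on chromosome 9 (37879400 to 37904353, minus strand, GENCODE 29), read 1010, 933 and 872 TPM in treated oeMCART1 cells and 701, 679 and 681 TPM in untreated ones. Every treated library lay above every untreated one, and the log2 difference was 0.45 ± 0.05 (SE; limma, adjusted p = 0.000177). The exact two-sided permutation test gave p = 0.1, the smallest that 3 against 3 allows. In oeNC cells the transcript averaged 8.5 TPM with MPP+ and 31.8 TPM without. The overexpressed transcript was present in both groups, and its MPP+ response differed from that in oeNC cells by 2.23 ± 0.12 (log2; limma, adjusted p = 4.54e-06). Whether the reads come from the construct or the chromosomal gene was not tested.

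A large part of the transcriptome differed between treated and untreated libraries, which are also split by table. On log2(TPM + 1), limma called 9253 of 14080 genes at an adjusted p under 0.05 (65.7%), 3331 of them higher (23.7%) and 5922 lower (42.1%), with a median of -0.15 over all genes. The values of the treated and untreated libraries did not overlap in 10001 genes (71%). Scaling by the median of ratios brought the median of all genes to 0 and gave 4521 higher and 4365 lower genes, and quantile normalization gave 4238 and 4656. The split between higher and lower genes thus depends on the scaling, and the counts of each gene list below are to be read against these shares. The log2 difference of a gene also went with its GC content, with a Spearman correlation of 0.35 over 13566 genes, which are not independent replicates. Removing that trend in each library left 3991 higher and 4341 lower genes of 13566.

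**Figure D1:**
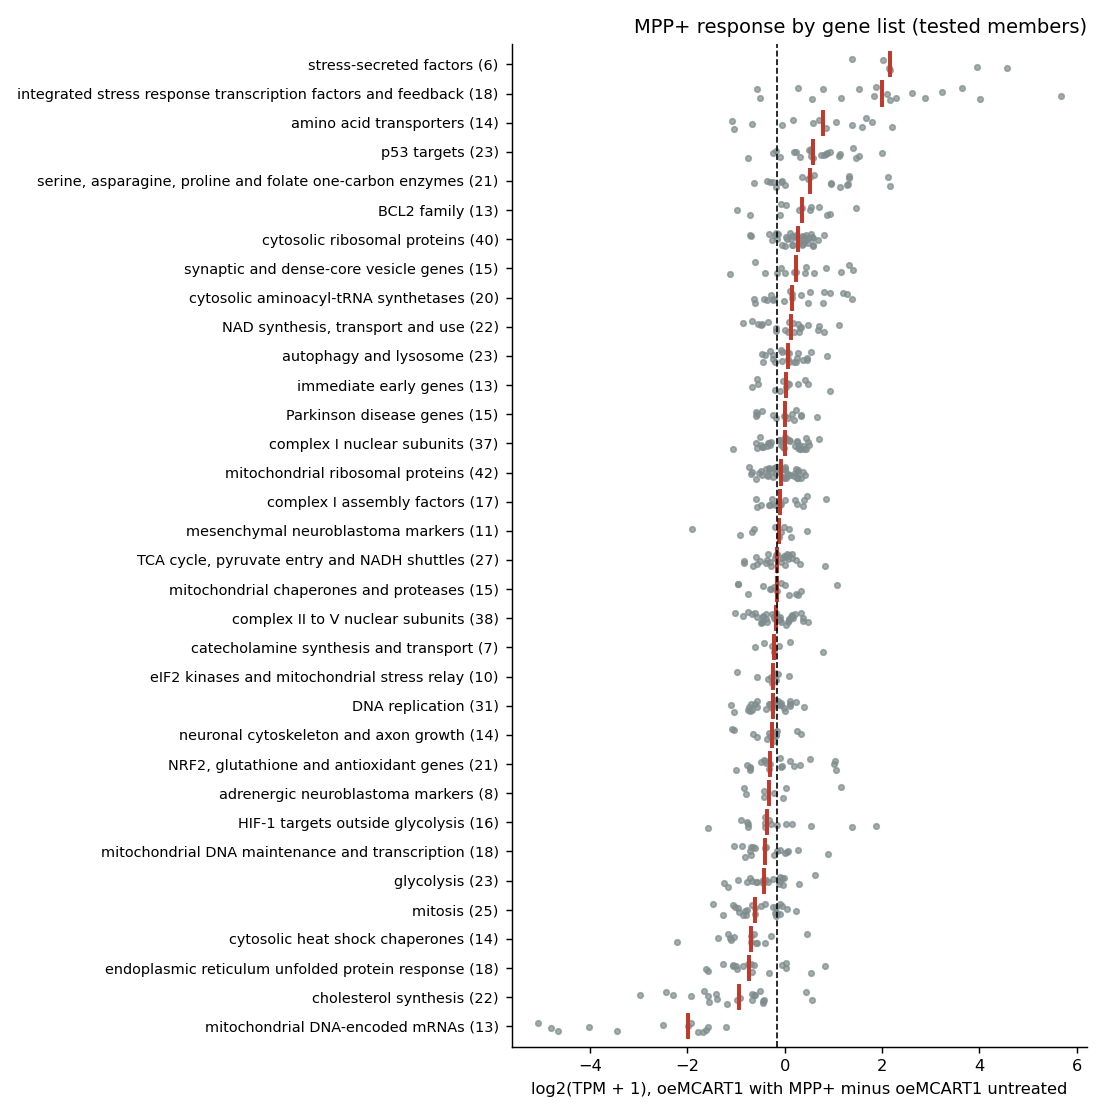
MPP+ response of each tested member of the gene lists (grey points, log2(TPM + 1) in treated minus untreated oeMCART1 cells), with the list's median as a red line, the number of members in brackets and the median of all genes as a dashed line. The lists of secreted stress factors and integrated stress response regulators lie farthest to the right, with medians of 2.15 and 1.99, and the mitochondrial DNA-encoded mRNAs farthest to the left, with -1.99.

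All 13 mRNAs of mitochondrial DNA fell. Their median log2 difference was -1.99, and together they made up 0.774, 0.658 and 0.744% of TPM in treated oeMCART1 libraries and 4.07, 4.29 and 5.04% in untreated ones. MT-ND3, a complex I subunit, read 322, 360 and 390 TPM in treated and 11543, 11331 and 13345 TPM in untreated cells. This was the largest fall of the 13, with a log2 difference of -5.07 ± 0.08 (SE; limma, adjusted p = 1.54e-08), and all treated libraries lay far below all untreated ones. In bulk libraries, fewer cells of a type and less RNA per cell cannot be told apart. Nor can treatment and table for these falls.

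The fall differed in size between the mRNAs of mitochondrial DNA, and treatment and table cannot be told apart for these differences either. MT-CO3, a subunit of complex IV, read 202, 184 and 181 TPM in treated and 4875, 4913 and 6007 TPM in untreated cells. Cytochrome b of complex III (MT-CYB) averaged 46.2 ± 3.39 TPM in treated and 1193 ± 136 TPM in untreated cells, and the complex I subunit MT-ND5 averaged 34.4 ± 3.16 and 572 ± 76.8 TPM (SD, n = 3). These 3 fell by 4.79, 4.66 and 4.01 on the log2 scale. MT-CO2, another complex IV subunit, fell by 3.45 and the complex I subunit MT-ND4 by 2.49. The smaller falls were those of MT-ATP6 and MT-ATP8 of complex V (by 1.99 and 1.58), the complex IV subunit MT-CO1 (by 1.93) and the complex I subunits MT-ND4L, MT-ND1, MT-ND2 and MT-ND6 (by 1.77, 1.68, 1.61 and 1.20). MT-ND6, encoded on the opposite strand to the others, averaged 292 ± 8.84 TPM in treated and 678 ± 98.7 TPM in untreated cells. MT-ATP8 overlaps MT-ATP6 and MT-ND4L overlaps MT-ND4, so reads of these pairs can be shared.

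Of the ribosomal RNAs of the same genome, MT-RNR2 rose and MT-RNR1 was not called. MT-RNR2, the large ribosomal RNA, read 6686, 6245 and 6923 TPM in treated and 2119, 2162 and 2591 TPM in untreated cells. It was higher in every treated library, with a log2 difference of 1.53 ± 0.08 (SE; limma, adjusted p = 3.06e-06). MT-RNR1, the small ribosomal RNA, read 1803, 1690 and 2086 TPM in treated and 2057, 1912 and 3109 TPM in untreated cells, and these groups overlapped (log2 difference -0.31 ± 0.17, adjusted p = 0.14). Both were chosen with their values known, and both were measured in RNA captured through poly(A). In the same libraries the mRNAs of mitochondrial DNA held 0.726 ± 0.0601% of TPM in treated and 4.46 ± 0.508% in untreated cells, and the 2 ribosomal RNAs held 0.848 ± 0.0537% and 0.465 ± 0.0911% (SD, n = 3).

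**Figure D2:**
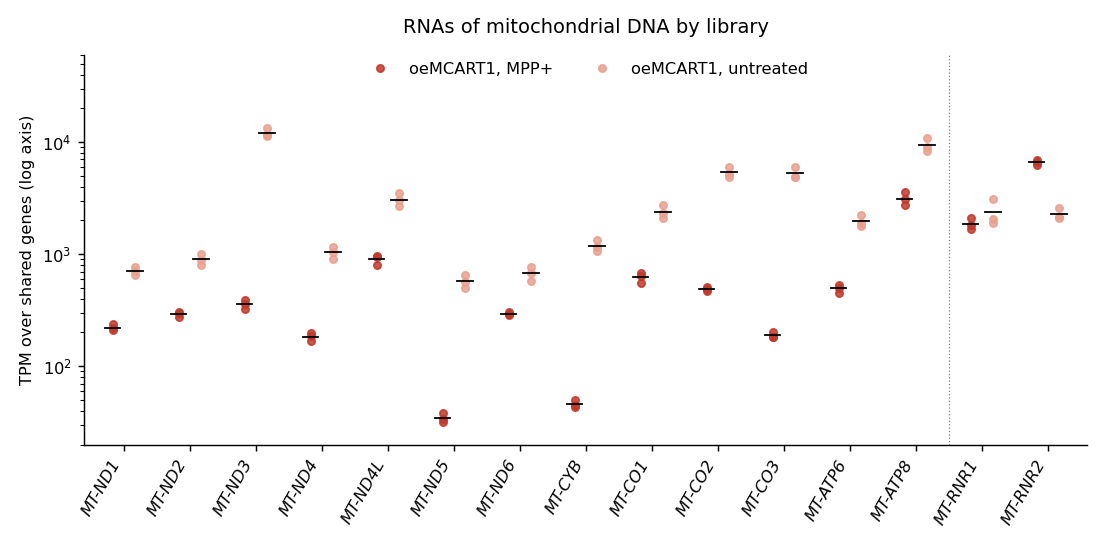
TPM (log axis) of the 13 mRNAs and, right of the dotted line, the 2 ribosomal RNAs of mitochondrial DNA in each oeMCART1 library with MPP+ (dark) and untreated (light), with the group mean as a black line. Every mRNA is lower in all 3 treated libraries, whereas MT-RNR2 is higher and MT-RNR1 overlaps.

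The nuclear genes that maintain and read mitochondrial DNA mostly fell. Of 18, 12 were lower (66.7%), 2 higher and 4 not called, with a median of -0.40. TFB2M, which opens the promoter for the mitochondrial RNA polymerase, averaged 9.14 ± 0.291 TPM in treated and 19.7 ± 0.428 TPM in untreated cells. TFAM, which packages mitochondrial DNA and starts its transcription, averaged 16.8 ± 1.64 and 30.1 ± 1.53 TPM, and LRPPRC, which stabilises its mRNAs, 43.8 ± 4.6 and 71.6 ± 3.01 TPM. These 3 fell by 1.03, 0.81 and 0.70 on the log2 scale (limma, adjusted p = 7.19e-06, 7.91e-05 and 0.00014). Under median-of-ratios scaling 10 of the 18 were lower and 4 higher, and under quantile normalization 10 and 2. With the GC trend removed, 8 were lower and 6 higher, with a median of -0.22.

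Nuclear genes of the respiratory chain showed no common direction across the lists, and the balance of complex I subunits depended on the scaling. Of 37 nuclear complex I subunits, 14 were higher (37.8%) and 13 lower (35.1%), with a median of 0.00. Under median-of-ratios scaling 19 were higher and 8 lower, with a median of 0.17. Quantile normalization and GC removal each gave 18 higher and 10 lower, with medians of 0.18 and 0.11. NDUFS4, a subunit needed for the assembly of the complex, read 104, 100 and 102 TPM in treated and 63.1, 62.2 and 61.0 TPM in untreated cells (log2 difference 0.70). NDUFA5, a subunit of the matrix arm, read 21.7, 21.6 and 19.7 TPM in treated and 42.0, 46.1 and 47.9 TPM in untreated cells (-1.07). Of 17 assembly factors of complex I, 6 were higher and 7 lower, and their median of -0.10 turned to 0.07 under median-of-ratios scaling. NDUFAF8 averaged 297 ± 9.46 TPM in treated and 166 ± 3.37 TPM in untreated cells. Of 38 nuclear genes of complexes II to V, 9 were higher and 23 lower (60.5%), with a median of -0.17 close to that of all genes. Among them ATP5MC1, a gene of the membrane ring of ATP synthase, averaged 384 ± 7.56 TPM in treated and 781 ± 11.7 TPM in untreated cells. Of 42 mitochondrial ribosomal proteins, 9 were higher and 17 lower (median -0.07, and 0.09 under median-of-ratios scaling).

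Genes around NAD and carbon use were mixed, apart from glycolysis. Of 22 tested genes that make, move or use NAD, 8 were higher (36.4%) and 6 lower (27.3%), with a median of 0.12. SARM1, an NAD-cleaving enzyme of axon degeneration, read 17.9, 17.4 and 19.0 TPM in treated and 8.14, 7.30 and 7.98 TPM in untreated cells, a log2 difference of 1.12 ± 0.07. NNT, which makes mitochondrial NADPH from NADH, read 17.6, 18.9 and 16.6 TPM in treated and 33.3, 32.0 and 33.3 TPM in untreated cells (-0.86 ± 0.06). NAMPT, of the NAD salvage pathway, averaged 23.1 ± 1.91 and 34.2 ± 0.889 TPM (-0.55), a call lost when the GC trend was removed (-0.05). Of 27 genes of the TCA cycle, pyruvate entry and NADH shuttles, 4 were higher and 12 lower. In the malate-aspartate shuttle the cytosolic GOT1 rose (82.9 ± 2.60 TPM in treated and 46.3 ± 0.808 TPM in untreated cells) and the mitochondrial GOT2 fell (139 ± 1.37 and 199 ± 3.42 TPM).

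Of 23 glycolytic genes, 15 were lower (65.2%) and 2 higher, with a median of -0.42. The summed level of the whole list was 10057 to 10352 TPM in treated and 13536 to 13607 TPM in untreated libraries. LDHA, which turns pyruvate into lactate, read 379, 375 and 369 TPM in treated and 886, 937 and 844 TPM in untreated cells (log2 difference -1.24 ± 0.04; limma, adjusted p = 4.32e-07). PKM, the pyruvate kinase, and PGK1, the phosphoglycerate kinase, fell by 0.78 and 0.72. Of 16 tested HIF-1 targets outside glycolysis, 10 were lower and 3 higher. Those 3 included DDIT4, an inhibitor of mTORC1, at 173 ± 12.3 TPM in treated and 46.3 ± 3.30 TPM in untreated cells, and VEGFA, an angiogenic factor that is also on the list of secreted factors, at 42.0 ± 3.50 and 15.4 ± 1.45 TPM. Both are also induced by ATF4.

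Most regulators of the integrated stress response rose. Of 18 tested regulators and feedback genes, 16 were higher (88.9%) and 2 lower, with a median of 1.99, and the same 16 and 2 counts were obtained under median-of-ratios scaling, quantile normalization and GC removal. NUPR1, a small stress-induced chromatin protein, read 83.1, 78.1 and 71.6 TPM in treated and 0.563, 0.423 and 0.603 TPM in untreated oeMCART1 cells. It had the largest rise of any gene named by the rule, 5.68 ± 0.09 (SE; limma, adjusted p = 1.15e-08). TRIB3, a pseudokinase that restrains ATF4 and AKT, read 229, 218 and 240 TPM in treated and 13.9, 12.9 and 12.6 TPM in untreated cells (4.02 ± 0.05).

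CHAC1, which degrades glutathione and carries the first window shown above, read 45.8, 47.2 and 54.3 TPM in treated and 2.95, 3.23 and 2.86 TPM in untreated cells (log2 difference 3.64 ± 0.08). DDIT3, which encodes the pro-apoptotic factor CHOP, read 140, 155 and 142 TPM in treated and 14.2, 14.6 and 15.0 TPM in untreated cells (3.23 ± 0.05). SESN2, a leucine sensor that restrains mTORC1, read 201, 202 and 206 TPM in treated and 26.4, 26.7 and 26.9 TPM in untreated cells (2.88 ± 0.04). In these 3 genes, too, every treated library stood above every untreated one. CHAC1 was named by a rule that asks for this, and DDIT3 and SESN2 by their small p. The groups did not overlap in 71% of all tested genes. ATF4 itself was already abundant, at 798 ± 16.2 TPM in treated and 659 ± 8.93 TPM in untreated cells, and rose by 0.28 ± 0.03. ATF3, a stress-induced repressor, averaged 165 ± 10.0 and 26.0 ± 1.55 TPM (2.62 ± 0.06), and PPP1R15A, which brings a phosphatase to eIF2, 97.5 ± 3.79 and 19.3 ± 0.907 TPM (2.28 ± 0.05). The 2 members that fell were PPP1R15B, the constitutive partner of that phosphatase, and HERPUD1, of protein disposal at the endoplasmic reticulum (-0.57 and -0.51). ATF4, ATF3, PPP1R15A, PPP1R15B and HERPUD1 were named after their values were seen. The 10 genes of the eIF2 kinases and of the relay from mitochondria to them held 7 lower and 3 not called, and under median-of-ratios scaling 1 was higher and 3 were lower.

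All 6 tested secreted stress factors rose, with a median of 2.15. GDF15, a circulating marker of mitochondrial disease, read 52.6, 53 and 64.3 TPM in treated and 1.62, 1.17 and 1.53 TPM in untreated cells (log2 difference 4.56 ± 0.11; limma, adjusted p = 8.3e-08). INHBE, an activin subunit, read 30.4, 27.1 and 29.9 TPM in treated and 1.20, 0.685 and 0.944 TPM in untreated cells (3.96 ± 0.11). STC2, a stanniocalcin, averaged 111 ± 4.46 TPM in treated and 26.7 ± 1.44 TPM in untreated cells, and ADM2, of the adrenomedullin family, 5.95 ± 0.197 and 0.560 ± 0.0664 TPM.

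Most of the listed amino acid transporters rose too. Of 14 amino acid transporters, 10 were higher (71.4%) and 3 lower, with a median of 0.78. SLC6A9, a glycine transporter, read 21.0, 19.9 and 23.5 TPM in treated and 4.33, 3.38 and 4.01 TPM in untreated cells (log2 difference 2.2 ± 0.10). SLC3A2, the heavy chain shared by several exchangers, read 352, 376 and 403 TPM in treated and 138, 145 and 146 TPM in untreated cells (1.39 ± 0.05), and its partner SLC7A5, which imports leucine, 152, 149 and 152 TPM and 86.2, 82.1 and 81.9 TPM (0.85 ± 0.04). Of 21 genes of serine, asparagine, proline and folate metabolism, 13 were higher (61.9%) and 5 lower, with a median of 0.52. ASNS, whose window stands above, read 673, 649 and 634 TPM in treated and 142, 151 and 143 TPM in untreated cells (2.16 ± 0.04; limma, adjusted p = 2.17e-08). CTH, which makes cysteine, averaged 61.9 ± 4.46 and 13.4 ± 0.749 TPM (2.12 ± 0.07), and PSAT1, of serine synthesis, 503 ± 32.6 and 203 ± 5.55 TPM (1.30 ± 0.05). The ASNS pseudogene ASNSP1 moved with its parent, at 18.3 ± 1.27 and 0.674 ± 0.396 TPM, and reads can be shared between them. Of 20 cytosolic aminoacyl-tRNA synthetases, 9 were higher and 7 lower. Those that rose included CARS1, WARS1, SARS1 and YARS1, which charge cysteine, tryptophan, serine and tyrosine tRNAs, by 1.38, 1.28, 1.20 and 0.94.

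**Figure D3:**
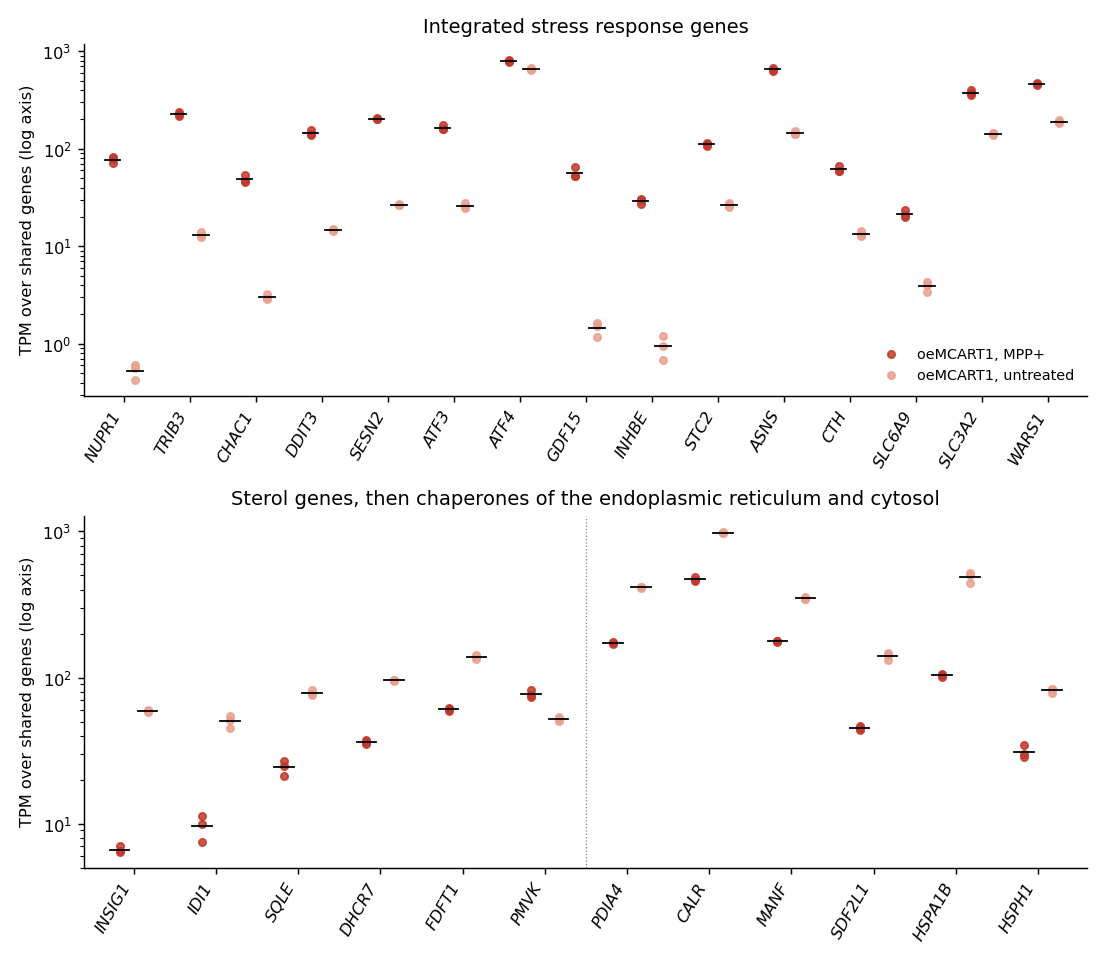
TPM (log axis) of integrated stress response genes (top) and of sterol genes and, right of the dotted line, chaperones (bottom) in each oeMCART1 library with MPP+ (dark) and untreated (light), with the group mean as a black line. The groups do not overlap in any gene shown, with treated libraries higher in the top panel and, apart from PMVK, lower in the bottom one. Of all tested genes, 71% do not overlap.

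Most listed genes of the chaperone response fell. Of 18 genes of the unfolded protein response of the endoplasmic reticulum, 13 were lower (72.2%) and 2 higher, with a median of -0.72, and 12 were lower under each of median-of-ratios scaling, quantile normalization and GC removal. PDIA4, a disulfide isomerase, read 174, 173 and 169 TPM in treated and 415, 413 and 411 TPM in untreated cells (log2 difference -1.26 ± 0.03; limma, adjusted p = 8.56e-08). CALR, a calcium-binding chaperone, read 465, 459 and 488 TPM in treated and 971, 996 and 977 TPM in untreated cells (-1.06 ± 0.03). HSPA5, the main chaperone of that compartment, averaged 208 ± 11.1 and 414 ± 11.8 TPM (-0.99 ± 0.05). It was named after its value was seen.

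Of 14 tested cytosolic heat shock chaperones, 13 were lower (92.9%) and 1 higher, with a median of -0.70. HSPA1B, an inducible HSP70 with a near-identical neighbour, HSPA1A, with which reads can be shared, read 104, 101 and 106 TPM in treated and 500, 517 and 446 TPM in untreated cells (log2 difference -2.22 ± 0.06). HSPH1, which exchanges the nucleotide of HSP70, averaged 31.1 ± 3.26 and 81.8 ± 3.06 TPM. Mitochondrial chaperones and proteases divided, with 4 higher and 7 lower of 15. The protease LONP1 of the matrix rose (157 ± 3.30 TPM in treated and 73.7 ± 2.53 TPM in untreated cells), and the chaperonin pair HSPD1 and HSPE1 fell by 0.96 and 0.95.

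Genes of cholesterol synthesis fell almost throughout. Of 22 tested, 20 were lower (90.9%) and 2 higher, with a median of -0.94, and the counts were the same under median-of-ratios scaling, quantile normalization and GC removal. INSIG1, a sterol-regulated gene whose protein retains the SREBP-SCAP complex in the endoplasmic reticulum, read 7.02, 6.41 and 6.50 TPM in treated and 59.8, 58.0 and 58.7 TPM in untreated cells. All treated libraries lay far below all untreated ones, with a log2 difference of -2.97 ± 0.06 (SE; limma, adjusted p = 2.75e-08).

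IDI1, the isomerase that makes dimethylallyl diphosphate, read 11.2, 10.0 and 7.5 TPM in treated and 45.4, 51.6 and 54.1 TPM in untreated cells (log2 difference -2.29 ± 0.13). SQLE, the squalene epoxidase, averaged 24.4 ± 2.78 TPM in treated and 78.2 ± 3.11 TPM in untreated cells (-1.65 ± 0.08). DHCR7, of the last steps of the pathway, averaged 36.3 ± 1.07 TPM in treated and 96.0 ± 1.38 TPM in untreated cells (-1.38 ± 0.04). SREBF2, the transcription factor of the pathway, fell by 0.45. The 2 members that rose were PMVK, the phosphomevalonate kinase (0.56), and TM7SF2, a sterol reductase (0.43). IDI1, SQLE, SREBF2, PMVK and TM7SF2 were named after their values were seen.

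Of 23 p53 targets, 17 were higher (73.9%) and 2 lower, with a median of 0.59. GADD45A, a stress sensor that is also an ATF4 target, read 75.3, 70.0 and 67.4 TPM in treated and 15.7, 17.4 and 18.0 TPM in untreated cells (log2 difference 2.0 ± 0.07). CDKN1A, the cyclin-dependent kinase inhibitor p21, read 55.2, 54.0 and 60.8 TPM in treated and 18.4, 19.6 and 19.2 TPM in untreated cells (1.52 ± 0.06), and TNFRSF10B, a death receptor that CHOP also induces, 82.7, 79.4 and 81.8 TPM and 36.5, 36.0 and 37.8 TPM (1.12 ± 0.04). Of 13 tested BCL2 family genes, 8 were higher and 2 lower. Among them BBC3, which encodes the pro-apoptotic PUMA, averaged 18.3 ± 0.755 TPM in treated and 5.96 ± 0.122 TPM in untreated cells, and the pore-forming BAX 300 ± 18.5 and 204 ± 3.07 TPM.

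Of 25 tested mitosis genes, 17 were lower (68%) and 1 higher, with a median of -0.60, and of 31 DNA replication genes 21 were lower (67.7%) and 2 higher, with a median of -0.23. MKI67, the proliferation marker Ki-67, read 9.39, 8.40 and 9.44 TPM in treated and 25.2, 27.4 and 27.9 TPM in untreated cells (log2 difference -1.47 ± 0.07). MCM4, of the replicative helicase, averaged 118 ± 6.31 and 255 ± 8.89 TPM (-1.11 ± 0.05). Under median-of-ratios scaling 12 of the 31 replication genes were lower and 6 higher. Of 40 cytosolic ribosomal proteins, 28 were higher (70%) and 8 lower, with a median of 0.28, and quantile normalization left 21 higher and 9 lower. Their summed level was 183090 to 186890 TPM in treated and 149686 to 154649 TPM in untreated libraries.

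Other lists held fewer calls in common. Of 21 NRF2, glutathione and antioxidant genes, 5 were higher and 12 lower. HMOX1, the inducible haem oxygenase, averaged 34 ± 0.431 TPM in treated and 16.2 ± 0.966 TPM in untreated cells, and PRDX1, a peroxiredoxin, 819 ± 22.9 and 1646 ± 107 TPM. Of 23 autophagy and lysosome genes, 9 were higher and 6 lower, and of 15 Parkinson disease genes 6 were higher and 4 lower. Of 15 genes of catecholamine synthesis and transport, 7 were tested, with 1 higher and 4 lower, and of 13 immediate early genes 4 were higher and 3 lower. Of 14 tested genes of the neuronal cytoskeleton and axon growth, 2 were higher and 7 lower. GAP43, the growth cone protein, averaged 3.42 ± 0.522 and 8.29 ± 0.780 TPM. Of 15 tested genes of synaptic and dense-core vesicles, 7 were higher and 3 lower. Of 11 tested mesenchymal neuroblastoma markers, 2 were higher and 5 lower, with a summed level of the whole list of 478 to 521 TPM in treated and 470 to 494 TPM in untreated libraries.

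Among the 12 largest rises named by the rule, 7 belong to none of these lists, of which ASNSP1 is described above. S100P, a calcium-binding protein, read 31.5, 20.7 and 31.7 TPM in treated cells and was listed at 0 in all 3 untreated libraries. FUT1, which makes the H antigen, averaged 13.7 ± 1.82 TPM in treated and 0.137 ± 0.101 TPM in untreated cells (log2 difference 3.68 ± 0.13). AKNA, a microtubule-organising protein, averaged 34 ± 0.572 and 1.71 ± 0.376 TPM (3.70 ± 0.11). CSAG2, a cancer-testis gene with near-identical copies, read 28.6, 27.3 and 25.9 TPM in treated and 0.784, 0 and 0.332 TPM in untreated cells. The antisense gene HEXA-AS1 read 21.4, 19.4 and 16.0 TPM in treated and 0.0201, 0.111 and 0.231 TPM in untreated cells, and the divergent transcript EFCAB13-DT 11.9, 13.8 and 16.7 TPM and 0, 0.211 and 0 TPM. These 2 overlap or adjoin other genes and are uncertain. S100P, FUT1 and CSAG2 stood at no more than 0.291, 0.251 and 1.11 TPM in any of the 12 untreated libraries. In the 12 treated libraries they stood at no less than 9.4, 5.13 and 18.5 TPM. Treatment and table cannot be told apart for these rises either. In treated oeNC cells S100P averaged 22.3, FUT1 11.4, AKNA 26.4, CSAG2 21.0, HEXA-AS1 20.7 and EFCAB13-DT 15.2 TPM.

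Of the 12 largest falls, 4 were mitochondrial and 8 were other names that may depend on the table. Treatment and table cannot be told apart for the 4 mitochondrial falls either. MT-ND3, for example, stood at 208 to 390 TPM in the 12 treated libraries and 11331 to 25426 TPM in the 12 untreated ones. CAST, which encodes calpastatin, was listed at 0 in all treated oeMCART1 libraries and read 29.6, 33.3 and 32.9 TPM in untreated ones, and in oeNC cells it read 0, 0 and 0.0601 TPM with MPP+ and 14.4, 19.0 and 15.5 TPM without it. LGALS8, PCBP1-AS1, TUBA1B-AS1, FOXD1-AS1, RNF185-AS1, FMC1-LUC7L2 and IQCJ-SCHIP1 were likewise low in both lines with MPP+. PCBP1-AS1, for example, read 0, 0.200 and 0.150 TPM in treated and 28.2, 29.1 and 23.8 TPM in untreated oeMCART1 cells, and averaged 27.8 TPM in untreated oeNC cells. Treatment and table cannot be told apart for these genes. Further falls of protein-coding nuclear genes, named after their values were seen, were those of CA2, a carbonic anhydrase (37.7, 38.2 and 33.3 TPM in treated and 282, 279 and 274 TPM in untreated cells; -2.90 ± 0.06), and AMD1, which supplies the aminopropyl donor of polyamines (16.6 ± 1.35 and 81.1 ± 5.27 TPM; -2.22 ± 0.07).

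To find where the response of oeMCART1 cells differed from that of oeNC cells, the oeNC response was subtracted from the oeMCART1 response in a limma interaction over the 12 libraries. A shift of a gene that all libraries of a table share on the log2 scale cancels in this difference. Of 14811 genes, 2749 were called (18.6%), 1980 with a positive difference (13.4%) and 769 with a negative one (5.19%). Median-of-ratios scaling gave 1232 and 1178, so the split depends on the scaling. The difference also went with GC content, with a Spearman correlation of 0.226 over 14216 genes. Removing that trend gave 1850 positive and 1512 negative differences. Allowing each library its own weight raised the count to 5762.

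All 13 mRNAs of mitochondrial DNA had a positive difference, with a median of 1.33. MT-ATP6 and MT-ATP8 showed 2.50 ± 0.17 and 2.55 ± 0.19 (SE; limma, adjusted p = 3.35e-05 and 3.78e-05), and the nuclear pseudogene MTATP6P1, which shares reads with MT-ATP6, showed 2.77 ± 0.22. The 13 mRNAs held 0.726 ± 0.0601% of TPM in treated and 4.46 ± 0.508% in untreated oeMCART1 libraries, and 0.421 ± 0.0316% and 8.73 ± 1.08% in treated and untreated oeNC libraries (SD, n = 3). The share was 4.61 ± 0.643% in untreated libraries of the knockdown line shMCART1 and 4.92 ± 0.268% in those of its control shScramble. Untreated oeNC libraries thus held the highest share of all untreated groups, and the positive differences draw on that level as well. MT-ND3 averaged 357 and 12073 TPM in treated and untreated oeMCART1 cells, and 355 and 23272 TPM in treated and untreated oeNC cells. The untreated means of this mRNA lay much farther apart than the treated ones. MT-ATP6 averaged 496 and 1972 TPM in treated and untreated oeMCART1 cells, and 172 and 3911 TPM in treated and untreated oeNC cells. The MT-ND3 difference of 0.96 was 0.20 under quantile normalization and was then not called.

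In the integrated stress response list, 8 of 18 members had a positive and 2 a negative difference, against 13.4% and 5.19% of all genes. Positive differences were not particular to stress genes. Of 37 nuclear complex I subunits, 15 had a positive and 1 a negative difference, and of 42 mitochondrial ribosomal proteins 13 and 2. SESN2 averaged 203 and 26.6 TPM in treated and untreated oeMCART1 cells, and 80.2 and 29.1 TPM in treated and untreated oeNC cells, a difference of 1.46 ± 0.16 (SE; limma, adjusted p = 0.000228). TRIB3 averaged 229 and 13.1 TPM in oeMCART1 cells with and without MPP+, and 168 and 17.2 TPM in oeNC cells (0.80 ± 0.14). DDIT3 went the other way, with 146 and 14.6 TPM in oeMCART1 cells with and without MPP+, and 159 and 11.1 TPM in oeNC cells (-0.50 ± 0.12).

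Of the 14 amino acid transporters, 6 had a positive difference by limma at an adjusted p under 0.05, against 13.4% of all genes. SLC7A5 averaged 151 and 83.4 TPM in treated and untreated oeMCART1 cells, and 107 and 111 TPM in treated and untreated oeNC cells, a difference of 0.89 ± 0.09 (SE; adjusted p = 0.000129). SLC6A9 and SLC3A2 showed 1.24 ± 0.20 and 0.74 ± 0.09, and WARS1 0.79 ± 0.10. Of the 23 p53 targets, 8 had a positive difference, against the same 13.4% of all genes. TP53I3, a quinone oxidoreductase, averaged 23.2 and 9.92 TPM in treated and untreated oeMCART1 cells, and 7.39 and 10.8 TPM in treated and untreated oeNC cells (1.65 ± 0.21; adjusted p = 0.000595), and BAX 300 and 204 TPM, and 161 and 213 TPM (0.96 ± 0.16). DDIT4 had a negative difference, with 173 and 46.3 TPM in oeMCART1 cells with and without MPP+, and 308 and 40.1 TPM in oeNC cells (-1.03 ± 0.14).

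The cholesterol genes had 10 negative and 1 positive difference among 22, with a median of -0.44, against 5.19% of all genes with a negative one. INSIG1 averaged 6.64 and 58.8 TPM in treated and untreated oeMCART1 cells, and 43.3 and 49.5 TPM in treated and untreated oeNC cells. Its difference of -2.75 ± 0.21 was the most negative of the genes named by the rule (SE; limma, adjusted p = 3.78e-05). IDI1 showed -1.19 ± 0.23, FDFT1, the squalene synthase, -0.63 ± 0.07 and DHCR7 -0.44 ± 0.07.

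LBH, SLC2A3 and BHLHE40 were not called in oeMCART1 cells, were higher in treated than in untreated oeNC cells, and had negative differences. LBH, a transcription cofactor, averaged 2.78 and 3.25 TPM in treated and untreated oeMCART1 cells, and 27.0 and 7.63 TPM in treated and untreated oeNC cells (difference -1.88 ± 0.17; limma, adjusted p = 9.77e-05). SLC2A3, a glucose transporter, averaged 7.28 and 7.53 TPM in oeMCART1 cells with and without MPP+, and 21.8 and 6.50 TPM in oeNC cells (-1.64 ± 0.19), and the repressor BHLHE40 5.73 and 5.58 TPM, and 15.5 and 4.17 TPM (-1.64 ± 0.19). COL1A1, a collagen chain, averaged 2.48 and 12 TPM in oeMCART1 cells with and without MPP+, and 10.4 and 13.9 TPM in oeNC cells (-1.54 ± 0.22). CALML4, a calmodulin-like protein, showed -1.47 ± 0.40, a call lost when 1 of 5 libraries was left out in turn.

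Named after their values were seen, SRSF6, MAT2A, MTHFS and INPP5D had positive differences. The splicing factor SRSF6 averaged 53.8 and 95.8 TPM in treated and untreated oeMCART1 cells, and 15.0 and 76.9 TPM in treated and untreated oeNC cells (1.45 ± 0.15; limma, adjusted p = 0.000153). MAT2A, which makes S-adenosylmethionine, averaged 91.8 and 143 TPM in oeMCART1 cells with and without MPP+, and 31.0 and 130 TPM in oeNC cells (1.44 ± 0.23). MTHFS, of folate metabolism, averaged 55.8 and 23.9 TPM in oeMCART1 cells with and without MPP+, and 15.1 and 17.9 TPM in oeNC cells (1.41 ± 0.18). INPP5D, a phosphoinositide phosphatase, averaged 9.47 and 1.23 TPM, and 1.10 and 0.405 TPM (1.65 ± 0.21). Cytosolic ribosomal proteins had 17 negative differences among 40, with a median of -0.20, against 5.19% of all genes with a negative one.

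**Figure D4:**
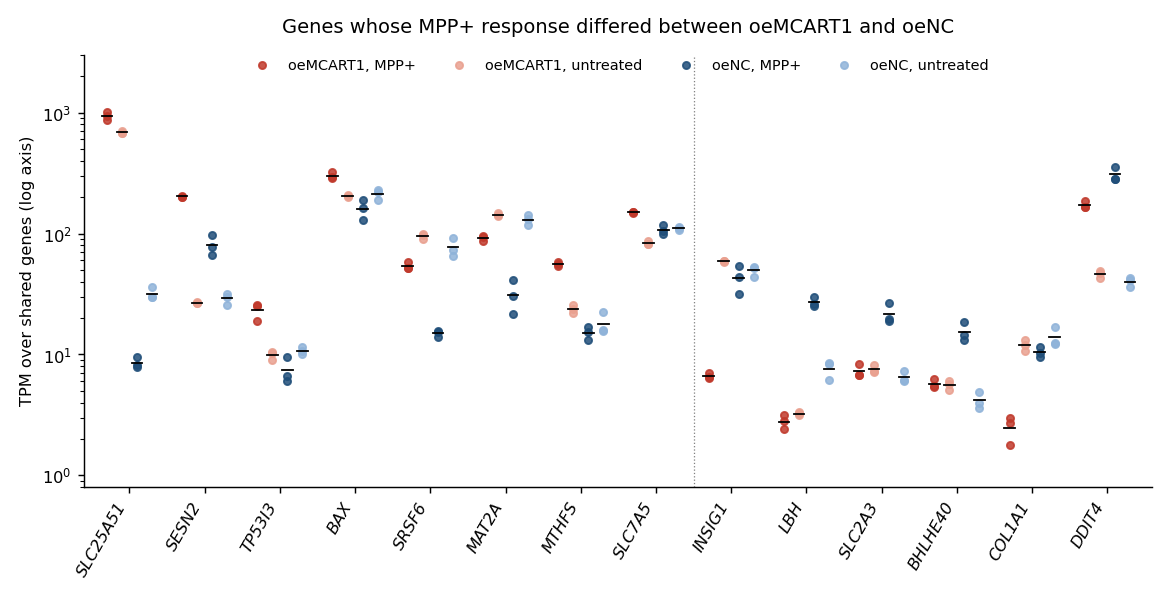
TPM (log axis) in each library of 4 groups, oeMCART1 with MPP+ and untreated and oeNC with MPP+ and untreated, with the group mean as a black line, for 8 genes with a positive difference of responses (left of the dotted line) and 6 with a negative one. INSIG1 lies far lower in the treated than in the untreated oeMCART1 libraries, while its treated and untreated oeNC libraries lie close together.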

How the data were processed

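Polyadenylated RNA of 24 libraries in 8 groups was sequenced, and 6 libraries (oeMCART1 with and without MPP+) and, for the difference between responses, 6 oeNC libraries were used. The deposited values are TPM computed by the authors, 1 table for the 12 untreated libraries and 1 for the 12 treated ones. The submitters' processing notes name the builds GRCh38, GRCm38 and mm10 without a role. The sources used here give no aligner, annotation or use of strand. Depth cannot be read from TPM, and no counting interval is given. The files of the untreated and treated libraries held 63266 and 36783 entries, of which 25 and 42 without a gene identifier were left out. Of the identifiers, 49.8% and 85.8% were shared, holding 99.28 to 99.82% of TPM. All shared identifiers were kept and 31220 had a symbol in the gene name table.

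Genes reaching 1 TPM in 3 or more libraries were fitted on the scale log2(TPM + 1), after rescaling, with limma 3.58.1 in R 4.3.3 (trended empirical Bayes variance, two-sided, Benjamini-Hochberg adjusted over all genes tested). The fold changes on this scale understate the change of low genes. The 6 libraries of the comparison entered its fit, and 12 the interaction, which was tested over 14811 genes. Groups came from the sample labels. Locations, gene types and GC content were from GENCODE 29, which may not be the authors' annotation. The fits were tested on simulated data with 50 changed genes at each fold. The 6-library fit called 28% of 1.25-fold, 70% of 1.5-fold and 96% of 2-fold changes. The interaction called 4%, 24% and 86% of them, so a gene without a called difference from oeNC may still differ. Replicates of a group correlated at 0.990 (treated) and 0.993 (untreated), and 13584 to 13717 treated and 13808 to 13883 untreated genes reached 1 TPM.

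The comparison, the members and the 35 gene lists were chosen with earlier results of these data known. The text names SLC25A51; up to 12 higher and 12 lower called genes with the largest log2 change, an official symbol, at least 5 TPM in the higher group, no overlap between groups and a value above 0 in each table; up to 4 called members with the smallest p of each list; the 13 mitochondrial mRNAs; and up to 6 positive and 6 negative differences. Some genes that this rule chose are not reported here, and none were put in their place. Alternatives were other pseudocounts and filters, scalings, removal of GC and length trends, leaving out mitochondrial genes or SLC25A51, all 24 libraries in the fit, library weights, a robust variance, a replicate block and each library left out. Python 3.11.15, pandas 2.3.3, numpy 2.4.6, scipy 1.17.1 and matplotlib 3.10.9 were used.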

Additional observations from a re-analysis of the deposited data

Results flagged for a closer look

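The genes below are named above and differed between the MPP+ responses of oeMCART1 and oeNC cells. Each was called by the limma interaction at an adjusted p under 0.05. Values are the log2 response of oeMCART1 minus that of oeNC. CAST also met this threshold, at -0.96 (limma, adjusted p = 0.00191), but is not counted below. Its treated values were at or near 0 in both lines. Its untreated means were 31.9 TPM in oeMCART1 and 16.3 TPM in oeNC cells, so its difference draws on the untreated levels. No explanation was tested for any of these genes.

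Among RNAs of mitochondrial DNA, the difference was 0.78 for MT-ND2, 0.89 for MT-ND1 and MT-ND6, 0.96 for MT-ND3, 1.21 for MT-CO1, 1.24 for MT-ND5, 1.33 for MT-CYB, 1.35 for MT-CO3, 1.40 for MT-RNR1, 1.47 for MT-CO2, 1.61 for MT-ND4, 1.71 for MT-ND4L, 2.50 for MT-ATP6 and 2.55 for MT-ATP8, with 2.77 for the nuclear pseudogene MTATP6P1. Among nuclear genes of respiration, NAD and carbon use, it was 0.28 for ATP5MC1, 0.71 for NDUFAF8, 0.69 for SARM1, -0.55 for NNT, -0.88 for NAMPT, 0.33 for GOT1, 0.32 for GOT2, 0.32 for PKM and -0.49 for LDHA.

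Among stress and amino acid genes, the difference was 0.79 for NUPR1, 0.80 for TRIB3, 1.46 for SESN2, -0.50 for DDIT3, -1.03 for DDIT4, 0.69 for GDF15, 0.38 for STC2, 0.83 for ADM2, 0.79 for WARS1, 0.29 for CARS1, 0.74 for SLC3A2, 0.89 for SLC7A5, 1.24 for SLC6A9, 0.34 for CALR, 0.67 for HSPA1B, 0.66 for HMOX1 and -0.33 for PRDX1. Among p53 and death genes it was 0.74 for CDKN1A, 0.80 for TNFRSF10B, 0.96 for BAX and 1.65 for TP53I3.

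Among sterol genes, the difference was -2.75 for INSIG1, -1.19 for IDI1, -0.72 for SQLE, -0.68 for SREBF2, -0.63 for FDFT1, -0.44 for DHCR7 and 0.64 for PMVK. Among the remaining genes it was 2.23 for SLC25A51, 1.65 for INPP5D, 1.45 for SRSF6, 1.44 for MAT2A, 1.41 for MTHFS, 1.05 for TUBA1B-AS1, 0.72 for AKNA, -0.63 for GAP43, -1.33 for CA2, -1.47 for CALML4, -1.54 for COL1A1, -1.64 for BHLHE40, -1.64 for SLC2A3 and -1.88 for LBH.

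Of these 66 differences, 48 were called under every alternative run and 18 were lost under at least 1, of which 8 were lost with at least 1 library left out. GDF15 is one of the 18: its ratio of means was 39.4 in oeMCART1 and 39.0 in oeNC cells, and with a pseudocount of 0.1 its difference was 0.12 and not called. NUPR1 and ADM2 also lost their calls with that pseudocount, at 0.88 and 0.93. NNT lost its call in 10 of 12 fits that left out 1 library, STC2 in 10, LDHA in 9, SQLE in 5, CALML4 in 5, GAP43 in 4, GDF15 in 2 and CARS1 in 1. The calls of NNT, STC2 and CARS1 were lost with all 24 libraries in the fit, and that of STC2 with the replicate block. Without the filter on low values, NNT, STC2, LDHA, SQLE and CALML4 lost their calls, and without mitochondrial DNA genes NNT and LDHA did. Under median-of-ratios scaling, quantile normalization or the removal of the GC trend, calls were lost for GDF15, STC2, CARS1, NUPR1, ADM2, ATP5MC1, CALR, CDKN1A, GOT1, GOT2, MT-ND3, PKM and AKNA, with lowest values among the lost calls of 0.06 for ATP5MC1, 0.11 for CALR, 0.12 for GOT2, 0.14 for PKM, 0.20 for MT-ND3, 0.24 for GOT1, 0.55 for AKNA and 0.65 for CDKN1A.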

How the results depend on the processing

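The count of 9253 genes called for MPP+ in oeMCART1 cells lay between 7005 (a filter of 5 TPM) and 9952 (no filter) over all alternatives, and between 7857 and 8691 with 1 library left out. A fit over only protein-coding genes, chosen after seeing the data, called 8126 of 12046. The log2 response of SLC25A51 lay between 0.39 and 0.50 with 1 library left out and stayed called throughout. The difference between the oeMCART1 and oeNC responses had 2749 called genes, 5762 with library weights, 3362 with the GC trend removed, and 2081 to 3282 with 1 library left out. Same-numbered libraries did not deviate together (correlations of -0.0533, 0.0389 and 0.00606). These values cannot show whether such libraries shared a culture or handling, which the labels do not state. A replicate block gave 8830 and 2597 calls.

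The counts here cover 189 responses and 92 differences of all genes chosen, including genes not described above. Over these and all alternatives, 187 results for a difference and 13 for a response were no longer called. The response of MT-RNR1 was called with the replicate block (-0.31, adjusted p = 0.0143). Of the responses of all genes chosen, 15 results reversed. With the GC trend removed, alone or with that of length, EIF2S1 moved to 0.14 and 0.16, YME1L1 to 0.01 and 0.02, STMN1 to 0.11 and 0.04, and SLC2A3 to 0.11 and 0.15. With the GC trend alone PTS moved to 0.12 and MRPL13 to 0.03. SLC2A3 moved to 0.10 under median-of-ratios scaling and 0.12 under quantile normalization. BHLHE40 moved to -0.01 without mitochondrial genes and to -0.03 when the first oeMCART1 library, treated or untreated, was left out. Among list medians, complex I assembly factors moved to 0.06 (GC and length), 0.07 (GC) and 0.07 (median of ratios), the TCA cycle to 0.04 (GC), HIF-1 targets to 0.07 (GC and length), mitochondrial ribosomal proteins to 0.08 (GC), 0.09 (median of ratios) and 0.04 (quantile), and mesenchymal markers to 0.01 (quantile). The cause was not tested. TPM give no depth, so low genes carry no counting error here.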
